A study of Haplochromis burtoni and Lepidiolamprologus elongatus and Tropheus moorii with 25 samples.

Results

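Intestinal single-cell libraries of 5 deeper-water cichlid species were compared with those of 5 shallow rocky-shore species of the same series. The libraries were chosen by species name and not by a measured value, but with earlier results of these data known. The 18 gene lists used below were chosen with those results known as well. The compared libraries are 10 of the 25 libraries and hold 37209 of the 101710 kept cell barcodes. The deeper-water side holds Triglachromis otostigma, Trematocara zebra, Cyphotilapia frontosa, Benthochromis horii and Bathybates ferox. The shallow rocky-shore side holds Tropheus moorii, Julidochromis ornatus, Petrochromis orthognathus, Eretmodus cyanostictus and Simochromis diagramma. Values below follow these orders of species. Each species was measured in 1 library of flushed, dissociated intestine, and the labels give no treatment, genotype, age, sex, site or depth of capture. The division by habitat therefore comes from general knowledge of these species and not from the labels.

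The species of both sides come from the radiation of Lake Tanganyika. Of the shallow species, 3 (Tropheus, Petrochromis and Simochromis) belong to 1 tribe, the Tropheini, and these 3 and Eretmodus graze on algae and what grows with them. Bathybates eats fish, and Trematocara and Benthochromis eat small animals. Habitat, lineage and diet cannot be told apart with these libraries, and the individual fish and its preparation are part of every difference between species.

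The intestinal lining of fish absorbs food through enterocytes. Enterocytes take up fatty acids and sterols at the brush border, rebuild triglyceride inside the cell and export it on lipoproteins. They also split peptides and sugars at their surface and convert carotenoids and vitamin A. The tissue below and between them holds many leukocytes. A sum of all reads of an intestine therefore depends on the makeup of the cells as well as on the state of each cell, and fewer cells of a type and less RNA per cell cannot be told apart in such a sum.

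The files hold counts of unique molecular identifiers (UMIs, tags that each mark 1 captured transcript) per gene and barcode. Kept UMIs ran from 16771820 to 20843774 in deeper-water libraries and from 6927767 to 20090777 in shallow ones. Kept barcodes numbered 1072 to 5698 in deeper-water libraries and 2458 to 4102 in shallow ones. Trematocara stood apart, with 1072 kept barcodes, a median of 5957 UMIs per barcode and the lowest mitochondrial share of the 10 (1.95%). Julidochromis lost 1944 barcodes to the limit of 250 genes, the most of the 10. Fits of the summed counts were therefore also computed without these 2 libraries. The shares below were computed without each of them in turn, but not without both. Pairs of libraries shared 0 to 8 barcodes. Of the 12 intestinal epithelial genes matched, 0 were at 0 in all 10 libraries, and their summed level was 2173 to 5620 scaled CPM (counts per 1000000 after TMM scaling, which evens out library composition) in deeper-water libraries and 1044 to 3742 in shallow ones.

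The deeper-water libraries held more epithelial and fewer leukocyte barcodes. A barcode was put in the epithelial gate when it carried at least 3 UMIs of a list of epithelial genes (epcam, cdh17, hnf4a and others) and over 3 times its UMIs of a leukocyte list (ptprc, lcp1, ikzf1 and others). The leukocyte gate was the reverse. Both gates are ranges of a marker sum and not cell types.

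The epithelial-gated share of kept barcodes was 26.7%, 56.9%, 45.4%, 24.9% and 50.8% in the deeper-water libraries. In the shallow libraries it was 28.5%, 9.35%, 17.7%, 22.4% and 9.80%. Tropheus lay among the deeper-water libraries, and the other 4 shallow libraries lay below all of them. The mean was 40.95% ± 14.4 in deeper-water libraries and 17.5% ± 8.22 in shallow ones (SD, n = 5 each), a difference of 23.4 percentage points. An exact permutation test over the 252 divisions of the libraries gave a 2-sided p of 0.0238 (Benjamini-Hochberg adjusted over the 2 shares, 0.0238).

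The leukocyte-gated share was 45.8%, 26.4%, 14.3%, 42.5% and 25.8% in the deeper-water libraries. In the shallow libraries it was 44.0%, 60.0%, 48.0%, 53.3% and 47.8%. Only Triglachromis among the deeper-water libraries overlapped the shallow range, above Tropheus. The means were 30.96% ± 13.03 in deeper-water libraries and 50.6% ± 6.18 in shallow ones (SD, n = 5 each). The difference was -19.65 points (exact permutation p = 0.0159, adjusted p = 0.0238).

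In the 15 other species the epithelial-gated share ran from 16.3% to 50.4% and the leukocyte-gated share from 9.04% to 62.1%. Trematocara and Bathybates lay above that epithelial range, and Julidochromis and Simochromis below it. In the 10 compared libraries 16.7% to 42.4% of barcodes fell in neither gate. Of their epithelial-gated barcodes, 1.43% to 15.9% lay near the limit of the gate, the most in Simochromis and Julidochromis. When every barcode was thinned to 1000 UMIs, the epithelial difference was 16.9 points (exact permutation, adjusted p = 0.0635) and the leukocyte difference -19.4 points (adjusted p = 0.0318). Without the 3 Tropheini the differences were 25.1 and -25.7 points, in a design whose smallest possible p is 0.0476 (exact permutation, adjusted p = 0.0952 for both).

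**Figure D1:**
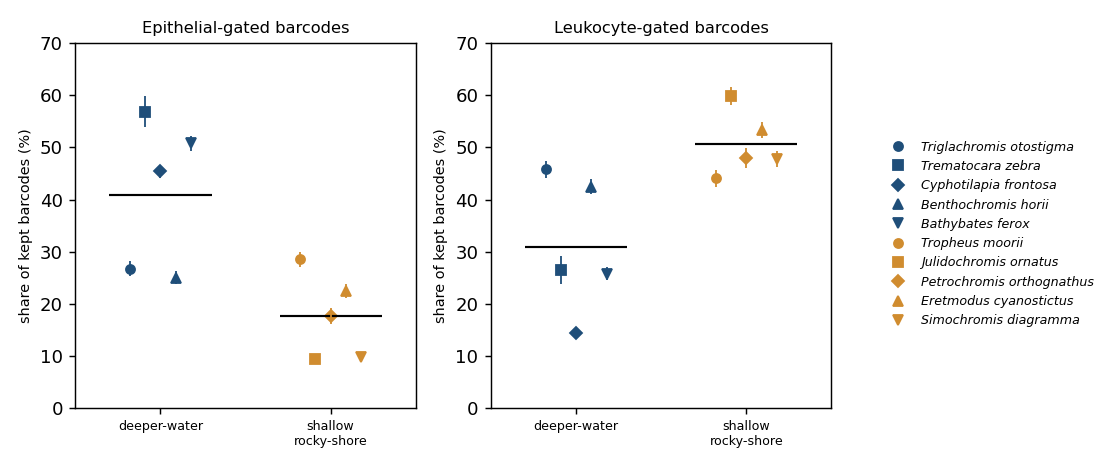
Share of kept barcodes (%) in the epithelial gate (left panel) and the leukocyte gate (right panel) for each library, deeper-water species left of shallow rocky-shore species; vertical lines are exact 95% binomial intervals, which cover counting error only, and horizontal lines are means of 5 libraries. Epithelial shares reach 56.9% in deeper-water libraries against at most 28.5% in shallow ones, and every shallow leukocyte share is 44.0% or more.

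Across the summed counts of whole libraries, 1 of 16778 features tested passed the threshold, an adjusted p of 0.05 in edgeR's quasi-likelihood test. That was 0.00596% of features in the higher direction and 0% (0 features) in the lower. At an unadjusted p under 0.05, 1639 features were higher in deeper-water libraries (9.77%) and 1490 were lower (8.88%), 18.6% of the total. DESeq2 called 777 features higher and 556 lower on the same sums. The median log2 fold change over all features was 0.02, and all fold changes are deeper-water over shallow.

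fbxo25 was higher in deeper-water libraries. It encodes an F-box protein, which in mammals brings substrates to a ubiquitin ligase. Its level was 33.1, 34.1, 16.9, 34.6 and 26.9 scaled CPM in the deeper-water libraries. In the shallow libraries it was 4.46, 4.32, 3.95, 6.19 and 5.49 scaled CPM. The lowest deeper-water value, of Cyphotilapia, lay well above the highest shallow one, of Eretmodus. The log2 fold change was 2.57 with a standard error of 0.29 (edgeR, adjusted p = 0.0319). In the 15 libraries of the other species the level ran from 3.46 to 126 with a median of 7.01, and 9 of the 15 lay above the whole shallow range.

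Within the epithelial gate fbxo25 was at 49.7, 36.6, 17.8, 53.0 and 31.9 scaled CPM in deeper-water libraries and at 5.16, 13.7, 2.49, 7.57 and 1.17 in shallow ones, and the sides again did not overlap. Within the leukocyte gate they overlapped, with a log2 fold change of 1.21 (edgeR, adjusted p = 0.526). The whole-library call was lost when any 1 of Triglachromis, Trematocara, Bathybates, Tropheus, Julidochromis, Petrochromis or Simochromis was left out, with adjusted p between 0.0525 and 0.159. The log2 fold change stayed between 2.51 and 2.90 in all 22 alternatives run.

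The next features by p shared adjusted p-values of 0.0638 and 0.0648 (edgeR), so none of them passed. At the looser limit of 0.1 there were 96 higher features (0.572%) and 75 lower ones (0.447%). Of these, 63 and 42 carry only a numbered identifier. The named genes with the lowest p are described next by their values. 3 with a negative fold change were named by rule and the others were chosen after their values were seen. In every one of the 10 genes of lowest p in each direction the 2 sides did not overlap. These genes were picked by the p of this same difference, so their lack of overlap is not a separate result. Over all features 1.86% had every deeper-water library above every shallow one and 2.56% had the reverse.

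Of the named genes with positive fold changes, 4 are described in full. phyh encodes phytanoyl-CoA hydroxylase, the peroxisomal enzyme that opens the breakdown of phytanic acid, a branched fatty acid derived from chlorophyll. It stood at 79.2, 236, 131, 339 and 168 scaled CPM in deeper-water libraries against 22.3, 21.6, 10.1, 31.3 and 29.5 in shallow ones (log2 fold change 3.05, SE 0.47). suox encodes the mitochondrial sulfite oxidase, the last step in the breakdown of sulfur amino acids. Its values were 32.8, 3.68, 40.1, 16.9 and 44.5 scaled CPM in deeper-water libraries and 0.375, 2.31, 0.330, 0.898 and 0.430 in shallow ones. Trematocara and Julidochromis were the 2 libraries nearest each other. Without them the log2 fold change of suox was 6.04, against 5.05 with all 10 libraries.

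got2, the mitochondrial aspartate aminotransferase, was at 127, 135, 62.4, 58.9 and 211 scaled CPM in deeper-water libraries and at 29.9, 26.5, 16.4, 18.6 and 18.1 in shallow ones. elovl5, an elongase of polyunsaturated fatty acids, was at 143, 513, 76.1, 153 and 114 scaled CPM in deeper-water libraries and at 31.5, 13.7, 10.4, 17.8 and 23.8 in shallow ones. Both had no overlap, and Trematocara held the extreme value of elovl5. The liver-type phosphofructokinase pfkl, the vitamin C transporter slc23a1, the secreted matrix protein gene wisp1, the diphthamide synthesis gene dph1 and ttc38 complete the group, with log2 fold changes between 2.23 (dph1) and 4.08 (wisp1).

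rassf5 had the lowest p of the named genes with negative fold changes. It encodes an effector of small Ras-family proteins that acts in lymphocyte adhesion in mammals. It was at 37.9, 33.6, 33.2, 28.8 and 29.6 scaled CPM in deeper-water libraries and at 131, 96.8, 152, 150.2 and 94.9 in shallow ones (log2 fold change -1.94, SE 0.27). spi1 encodes PU.1, a transcription factor of myeloid and B cells, and had 29.0, 14.1, 16.3, 22.2 and 16.2 scaled CPM in deeper-water libraries against 57.3, 101, 75.6, 45.6 and 76.3 in shallow ones. These differences stood beside the leukocyte shares given above. Within the leukocyte gate the sides overlapped for both genes, with log2 fold changes of -0.72 for rassf5 and -0.82 for spi1. Within the epithelial gate rassf5 was at 0.369 to 2.44 scaled CPM in deeper-water libraries and at 3.52 to 8.40 in shallow ones. The sides did not overlap there (log2 fold change -2.16), while those of spi1 did (0.40). In the leukocyte gate rassf5 was at 87.5 to 279 scaled CPM in deeper-water libraries and at 117 to 412 in shallow ones. The summed leukocyte list inside the epithelial gate was 71.3 to 117 scaled CPM in deeper-water libraries and 111 to 151 in shallow ones. The part of leukocyte RNA in the epithelial-gated rassf5 values was not tested.

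plxdc2 encodes a transmembrane protein with a plexin-like domain. It was at 0.433, 0.067, 2.47, 0.956 and 0.728 scaled CPM in deeper-water libraries and at 13.03, 20.2, 19.9, 25.7 and 22.3 in shallow ones. The sides stayed apart within the leukocyte gate, at 0.354 to 12.6 scaled CPM in deeper-water libraries against 22.3 to 61.8 in shallow ones, where the log2 fold change was -3.72 (edgeR, unadjusted p = 0.000795, adjusted p = 0.302). gpat3, a glycerol-3-phosphate acyltransferase that starts triglyceride synthesis, was at 4.02 to 12.2 scaled CPM in deeper-water libraries and at 23.7 to 58.7 in shallow ones. Within the epithelial gate gpat3 was at 1.87 to 2.96 scaled CPM in deeper-water libraries and at 1.87 to 3.92 in shallow ones (log2 fold change -0.32). In the leukocyte gate it was at 18.7 to 79.1 and at 40.0 to 111 (log2 fold change -1.38). The sides overlapped in both gates. The nuclear receptor gene esrra was at 64.6 to 105 scaled CPM in deeper-water libraries and at 185 to 306 in shallow ones. Its log2 fold change was -0.32 in the epithelial gate and -1.06 in the leukocyte gate, with overlap in both. The kinase gene plk2 was at 3.01 to 15.5 scaled CPM in deeper-water libraries and at 50.2 to 169.9 in shallow ones. The log2 fold change of plk2 was -1.95 in the epithelial gate and -2.53 in the leukocyte gate, with overlap in both. The transcriptional repressor gene hic1, rasgef1c, fam126b and slc12a9 had log2 fold changes between -2.45 (slc12a9) and -1.42 (fam126b).

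**Figure D2:**
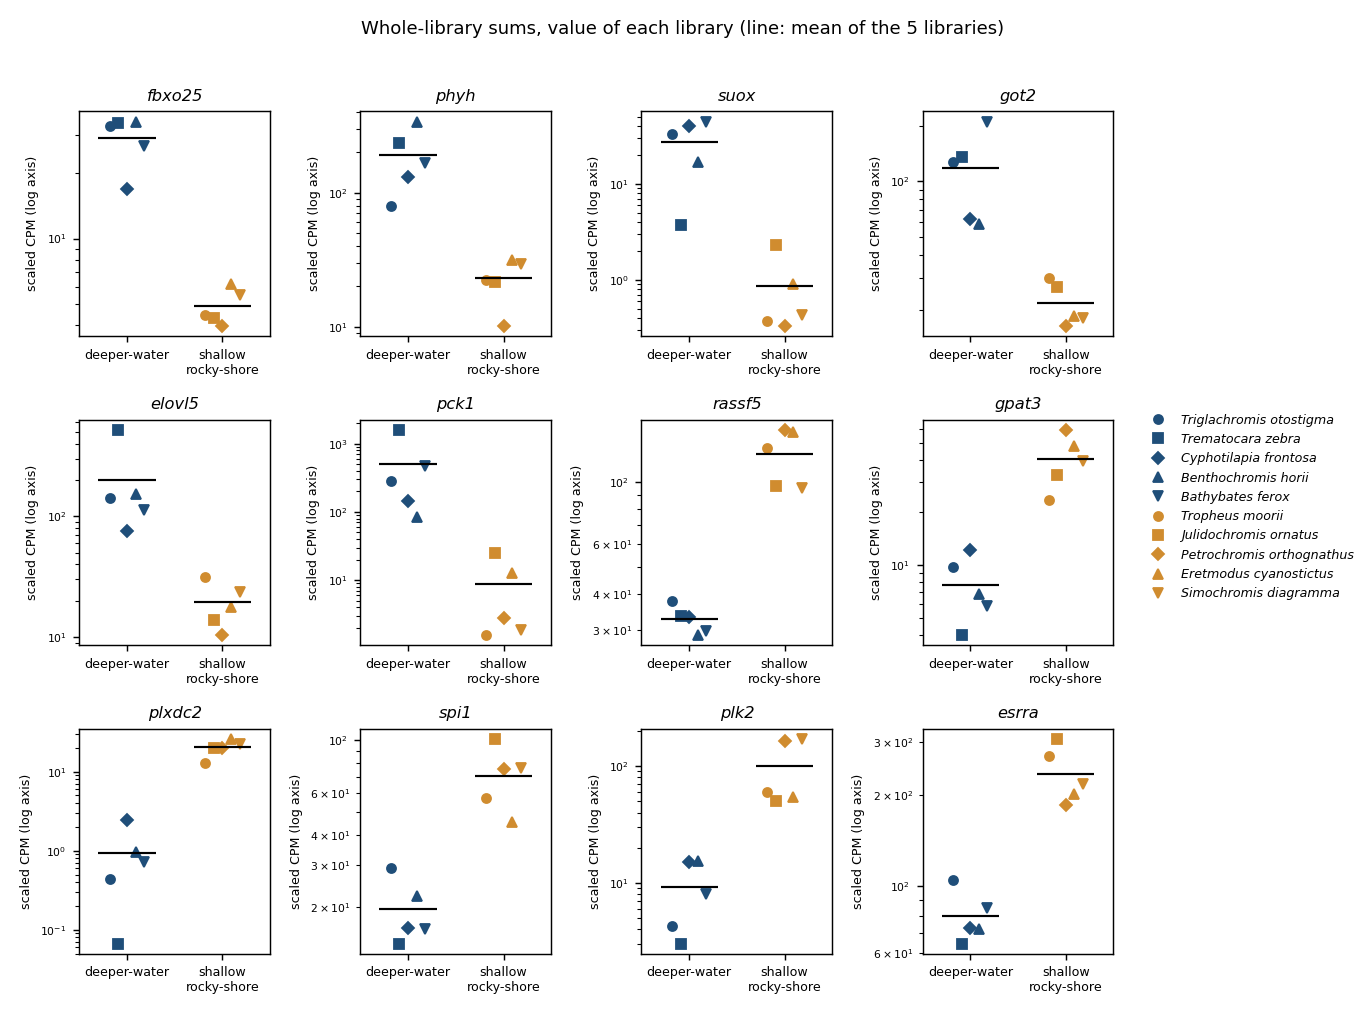
Level of 12 genes in whole-library sums, in scaled CPM on a log axis, for each library of the deeper-water side (left in each panel) and the shallow rocky-shore side (right); horizontal lines are means of 5 libraries. The sides do not overlap in any panel, and among these genes fbxo25 alone passed an adjusted p of 0.05; pck1 is drawn as the carbohydrate gene of lowest p.

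The whole-library differences stood beside the difference in cell makeup. All 15 genes of the leukocyte list had negative fold changes, and 10 of the 15 were lower at an unadjusted p under 0.05, beside 8.88% of all features. Their summed level was 459.9 to 1237 scaled CPM in deeper-water libraries and 1328 to 2884 in shallow ones. This list defines the leukocyte gate, so its levels restate the leukocyte shares from the same counts and are not a separate result. The 9 tested T or NK cell markers and the 10 B or plasma cell markers all had negative fold changes as well, and 4 of 9 and 5 of 10 were lower at that limit. Summed T or NK markers were at 176 to 445 scaled CPM in deeper-water libraries and 341 to 1621 in shallow ones. Summed B or plasma markers were at 516 to 742 scaled CPM in deeper-water libraries and 468 to 1860 in shallow ones, so that both sums overlapped. In deeper-water libraries most of the B or plasma sum was xbp1, at 413 to 663 scaled CPM. In shallow libraries xbp1 was at 228 to 1512 (log2 fold change -0.05), with a median of 270 beside a median sum of 668. The other members had log2 fold changes between -2.06 (pax5) and -0.81 (btk). Summed macrophage or dendritic markers reached 77.3 to 169 scaled CPM in deeper-water libraries and 243 to 309 in shallow ones. Of the 12 epithelial genes, 10 had positive fold changes and 6 were higher at an unadjusted p under 0.05, beside 9.77% of all features. The epithelial genes define the other gate, so their levels likewise restate the epithelial shares. For the other cell type lists (granulocytes, enteroendocrine, fibroblast and smooth muscle, endothelial, pancreatic, stomach gland and best4 cells, and the cell cycle) the ranges of the sides overlapped. Summed pancreatic markers spanned 2.01 to 407.5 scaled CPM in deeper-water libraries and 0.375 to 459 in shallow ones.

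When the epithelial share of gated barcodes entered the model as a covariate, the features at an unadjusted p under 0.05 numbered 984 of 16778 (5.86%), and 0 passed the adjusted threshold in edgeR. That share itself was 36.9% to 76.0% in deeper-water libraries and 13.5% to 39.3% in shallow ones. Covariate and side thus vary together, and counts under this model, here and below, cannot tell side from cell makeup. Under that model fbxo25 had a log2 fold change of 2.90 (edgeR, adjusted p = 0.271), phyh 3.29 and plxdc2 -5.05. The fold changes of suox (5.35, against 5.05 without the covariate), dph1 (2.68 against 2.23) and rassf5 (-2.07 against -1.94) were also farther from 0 under it. Those of several other named genes were nearer 0, by over 1.5 times for pfkl (1.35, against 3.01 without the covariate), wisp1 (2.44 against 4.08), ttc38 (1.58 against 2.61) and spi1 (-1.14 against -1.86). hic1 moved nearly as much, to -1.29 with the covariate, against -1.94 without it. Of the list members named below, slc27a4 was at 1.14 under it (2.42 without), xpnpep2 at 0.95 (2.17), aoc1 at 1.72 (2.88), chdh at 1.08 (3.07) and aco1 at 0.81 (1.86). The list member atp5mf moved the other way, to 1.84 with the covariate, against 1.51 without it. Within the epithelial gate 0 of 13985 features passed an adjusted p of 0.05 in either direction (0%). There, 839 were higher at an unadjusted p under 0.05 (6%) and 819 lower (5.86%), and DESeq2 called 334. Within the leukocyte gate 0 of 11518 passed (0%). There, 528 were higher at an unadjusted p under 0.05 (4.58%) and 504 lower (4.38%), and DESeq2 called 95.

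Most genes of lipid absorption and export, 17 of the 19 tested, had a positive fold change, and 0 of the 19 passed the adjusted threshold. In whole-library sums 14 of 19 were higher at an unadjusted p under 0.05 and 0 were lower, beside 9.77% and 8.88% of all features. The median log2 fold change of the list was 2.2. In epithelial-gated sums 10 of 19 were higher at that limit, beside 6% of all features, and the median was 1.53. Of 28 genes listed, 18 were found by name, as 19 features, and all 19 passed the filter on low counts.

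Among the uptake genes, slc27a4 encodes a fatty acid transport protein and had the lowest p of the list. It stood at 28.0, 179.9, 200, 123 and 317 scaled CPM in deeper-water libraries and at 32.7, 40.1, 18.5, 44.4 and 22.7 in shallow ones (log2 fold change 2.42, SE 0.56, edgeR adjusted p = 0.101). Triglachromis lay within the shallow range and the other 4 above it. cd36, a fatty acid and lipoprotein receptor, was at 94.9, 1613, 401, 412 and 475 scaled CPM in deeper-water libraries and at 78.2, 32.4, 18.3, 285 and 57.6 in shallow ones. The intestinal cholesterol transporter gene npc1l1 was at 49.6, 603, 502, 182 and 270.5 scaled CPM in deeper-water libraries and at 100.5, 27.6, 4.72, 94.0 and 52.8 in shallow ones. Trematocara was the highest library for both genes. The highest shallow library was Eretmodus for cd36 and Tropheus for npc1l1, and each overlapped the deeper-water range.

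Genes of triglyceride assembly and export came next. dgat2, which adds the last fatty acid to a triglyceride, was at 57.4, 264, 22.4, 56.5 and 94.5 scaled CPM in deeper-water libraries. In shallow libraries it was at 3.33, 4.01, 2.31, 49.3 and 3.12, so that Eretmodus alone overlapped. The lipoprotein assembly gene mttp had log2 fold changes of 2.50 in whole-library sums and 1.53 in epithelial-gated sums. apoa4b, a lipoprotein component, stood at 238, 19918, 2219, 6406 and 1592 scaled CPM in deeper-water libraries against 153, 410, 183, 1381 and 746 in shallow ones.

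The sterol exporter pair abcg5 and abcg8 had log2 fold changes of 2.33 and 2.55 within the epithelial gate. There abcg5 stood at 35.2, 40.0, 11.02, 6.74 and 20.5 scaled CPM in deeper-water libraries and at 5.09, 1.05, 1.42, 6.38 and 7.43 in shallow ones, with Simochromis alone above a deeper-water library, Benthochromis. The intracellular fatty acid carrier fabp1 had a negative fold change. It was at 38.2, 7.50, 10.9, 39.4 and 3.09 scaled CPM in deeper-water libraries and at 3.12, 1.54, 524, 0.047 and 253 in shallow ones, with both high values in Petrochromis and Simochromis. The second carrier, fabp2, had a log2 fold change of 1.54, and its sides overlapped.

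With any 1 library left out, 11 to 15 of the 19 lipid genes were higher at an unadjusted p under 0.05 in whole-library sums, with medians of 1.64 to 2.58. In epithelial-gated sums the count was 3 to 12. It was 3 without Trematocara or without Simochromis, 4 without Tropheus or without Petrochromis, and 6 without Bathybates or without Julidochromis. Without both Trematocara and Julidochromis, 5 of 19 were higher at an unadjusted p under 0.05 in whole-library sums (6.94% of all features were) and 4 of 19 in epithelial-gated sums (5.5%), with medians of 1.51 and 1.08. Without the Tropheini the counts were 6 of 19 (4.03% of all features) and 2 of 19 (1.94%). With the epithelial share as a covariate 0 of 19 were at that limit (2.89% of all features), and 15 of the 19 fold changes were above 0. The median log2 fold change of the list was then 0.87.

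**Figure D3:**
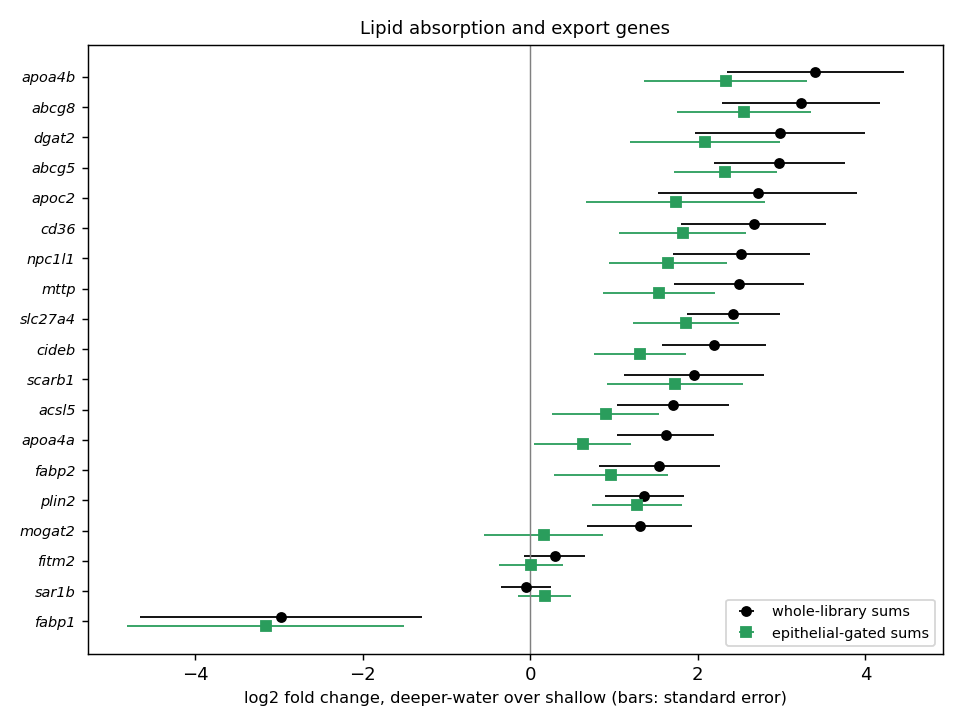
Log2 fold change, deeper-water over shallow rocky-shore, of the 19 tested features of lipid absorption and export in whole-library sums (circles) and epithelial-gated sums (squares); bars are approximate standard errors. All but fabp1 and sar1b lie above 0 in whole-library sums, none passed an adjusted p of 0.05, and epithelial-gated values are mostly nearer 0.

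On the carbohydrate list 5 of 11 genes were higher at an unadjusted p under 0.05 in whole-library sums, beside 9.77% of all features. They were pck1, gk5, slc37a4, khk and g6pc, of which gk5 is by its name a glycerol kinase gene. In epithelial-gated sums 3 of 11 were higher at that limit, beside 6%. Without Julidochromis or without Petrochromis the whole-library count was 3. Without the Tropheini 1 of 11 was higher and 1 lower in whole-library sums, beside 4.03% and 5.43% of all features. With the epithelial share as a covariate 2 of 11 were higher and 1 lower, beside 2.89% and 2.97%. pck1, which commits carbon to glucose synthesis, was at 287, 1562, 142, 85.3 and 475 scaled CPM in deeper-water libraries and at 1.58, 24.8, 2.75, 12.8 and 1.83 in shallow ones (log2 fold change 5.87, SE 1.15, edgeR adjusted p = 0.075). The sides lay far apart, and the 15 other species spanned 2.80 to 1088. In epithelial-gated sums Julidochromis, at 142, overlapped Benthochromis, at 137.

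Of the 15 protein digestion and peptide uptake genes tested, 3 were higher at that limit in whole-library sums (20%, beside 9.77% of all features) and 2 in epithelial-gated sums (13.3%, beside 6%). Without Eretmodus 8 of 15 were in whole-library sums and 9 of 16 in epithelial-gated sums, and without Triglachromis, Julidochromis or Simochromis the whole-library count was 1. With the epithelial share as a covariate the whole-library count was 0 of 15 (2.89% of all features), with a median log2 fold change of -0.32. xpnpep2, a brush-border aminopeptidase, was at 301, 429.8, 381, 100.5 and 530 scaled CPM in deeper-water libraries and at 104, 47.2, 39.2, 151 and 46.1 in shallow ones, with Benthochromis below Tropheus and Eretmodus. The median log2 fold changes were 0.82 in whole-library sums and 0.61 in epithelial-gated sums. Sterol synthesis genes had 2 of 17 higher in both sums (11.8%), near the 9.77% of all features in whole-library sums and above the 6% in epithelial-gated sums. insig1, a brake on that pathway, had a log2 fold change of 2.11 in epithelial-gated sums, with 31.4 and 26.5 scaled CPM in Trematocara and Bathybates, and 2.71 to 8.12 in the other deeper-water libraries against 2.35 to 5.25 in shallow ones.

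Among the genes of carotenoid and retinoid (vitamin A) handling all 10 tested had log2 fold changes above 0 in whole-library sums and 5 of the 10 were at an unadjusted p under 0.05, beside 9.77% of all features. Without any 1 of Trematocara, Julidochromis, Petrochromis or Simochromis 3 of the 10 were. With the epithelial share as a covariate 0 of the 10 were (2.89% of all features), and 8 of the 10 fold changes were above 0. In epithelial-gated sums 4 of 9 were at that limit, beside 6% of all features, and the median was 1.42. There the count was 2 of 10 without Petrochromis. rbp2, which carries retinol inside enterocytes, was at 495, 1655, 2251, 1303 and 7393 scaled CPM in deeper-water libraries and at 64.0, 347, 62.0, 228 and 262 in shallow ones, with no overlap (log2 fold change 3.77, edgeR adjusted p = 0.085). Within the epithelial gate Julidochromis stood at 1826 and lay among the deeper-water libraries. The retinoic acid-forming enzyme aldh1a2 and the receptor of retinol-binding protein, stra6, had log2 fold changes of 1.5 and 1.42 in epithelial-gated sums. 5 of the 15 matched genes of this list did not pass the filter in whole-library sums and 6 in epithelial-gated sums.

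Of the 24 fatty acid oxidation genes, 13 were higher at an unadjusted p under 0.05 in whole-library sums and 0 lower, beside 9.77% and 8.88% of all features. The whole-library count was 6 without Trematocara, 7 without Julidochromis, 5 without Petrochromis and 7 without Simochromis, of 24 or 25 tested. With the epithelial share as a covariate 0 of 24 were higher and 1 was lower (2.89% and 2.97% of all features). Of those 24 fold changes, 21 were above 0. In epithelial-gated sums 2 of 24 were higher, acads and pdk4 (8.33%, beside 6% of all features), while 22 of the 24 fold changes stayed above 0 (median 0.77). pdk4, which holds back the burning of sugar, was at 98.8, 16.5, 115, 11.5 and 25.9 scaled CPM in the epithelial gate of deeper-water libraries and at 6.73, 3.15, 5.34, 17.8 and 5.48 in that of shallow ones. Eretmodus overlapped Trematocara and Benthochromis. Among the fatty acid synthesis genes elovl5 alone was at that limit in either sum.

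Of the nuclear genes of oxidative phosphorylation 44 of 46 had fold changes above 0 in whole-library sums, with a median of 0.75, and 12 of 46 were higher at an unadjusted p under 0.05 (26.1%, beside 9.77% of all features). Without Triglachromis or without Cyphotilapia 20 were, and without Benthochromis or without Petrochromis 7. Epithelial-gated sums had 45 of 46 above 0 with a median of 0.58, and 4 at that limit (8.70%, beside 6% of all features). Without Benthochromis that median was 0.23 and 33 of 46 were above 0. Leukocyte-gated sums had 41 of 46 above 0 with a median of 0.26, and 2 at that limit (4.35%, beside 4.58%). With the epithelial share as a covariate 45 of 46 were above 0 and 11 at that limit (2.89% of all features were). The ATP synthase subunit gene atp5mf was at 343, 639, 277, 927 and 626 scaled CPM in deeper-water libraries and at 202, 152, 142, 206 and 283 in shallow ones, and only Cyphotilapia and Simochromis overlapped. 0 of the 13 genes of the mitochondrial genome were at that limit. Without both Trematocara and Julidochromis 7 of those 13 were, beside 6.94% of all features in that fit.

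With all 10 libraries the lists of light response and of chaperones gave counts below the share of all features. Of 12 circadian clock and light response genes 0 were at an unadjusted p under 0.05 in either sum. Without Tropheus 2 of 12 were higher in whole-library sums, beside 9.13% of all features. Without Triglachromis 2 of 13 were lower, beside 9.51%. The lowest p was that of bhlhe40, a transcriptional repressor of the clock, at 77.3 to 224 scaled CPM in deeper-water libraries and 158 to 582 in shallow ones. Of 24 chaperone genes 1, hspa13, was lower in whole-library sums (20.2 to 31.3 scaled CPM in deeper-water libraries, 33.1 to 76.8 in shallow ones). In epithelial-gated sums 0 of 22 were at that limit. Without Petrochromis 2 of 25 chaperone genes were lower in whole-library sums, beside 6.85% of all features.

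The hypoxia response list had 1 of 19 genes higher (5.26%, beside 9.77% of all features) and 2 lower (10.53%, beside 8.88%) at that limit in whole-library sums. Epithelial-gated sums had 2 of 18 each way (11.1%, beside 6% higher and 5.86% lower). The whole-library counts lay near those of all features. The epithelial-gated counts lay above them, at 2 genes each way, and the members are given by their values only. In epithelial-gated sums vegfa, a vessel growth factor, and hif1an, an inhibitor of the hypoxia-inducible factor, were higher at that limit, and hk1 and the peptide hormone gene adm were lower. hk1 encodes hexokinase, which starts glucose use, and was at 4.80, 7.53, 7.15, 6.58 and 4.94 scaled CPM in the epithelial gate of deeper-water libraries and at 28.4, 57.7, 35.3, 11.3 and 13.3 in that of shallow ones. The sides did not overlap (log2 fold change -2.21, edgeR adjusted p = 0.19), and 1 of the 15 other species stood below the highest deeper-water value. Within the leukocyte gate the fold change of hk1 was 0.47, and the sides overlapped.

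Among osmolyte and taurine genes 3 of 11 were higher in whole-library sums (27.3%, beside 9.77% of all features). With the epithelial share as a covariate 0 of 11 were (2.89% of all features), and 5 of the 11 fold changes were above 0. The betaine-forming choline dehydrogenase gene chdh was at 3.90, 67.0, 17.8, 13.9 and 37.8 scaled CPM in deeper-water libraries and at 4.91, 0.925, 2.75, 2.98 and 4.95 in shallow ones, with Triglachromis inside the shallow range. Iron and haem genes had 4 of 20 higher in whole-library sums (20%, beside 9.77%) and 1 of 19 in epithelial-gated sums (5.26%, beside 6%). aco1, the iron-sensing cytosolic aconitase, was at 3.59 to 13.5 scaled CPM in deeper-water libraries and 1.43 to 3.39 in shallow ones. Biotransformation genes had 3 of 18 higher in whole-library sums (16.7%, beside 9.77%), led by the diamine oxidase gene aoc1, at 233, 299, 390.1, 185 and 652 scaled CPM in deeper-water libraries and 112, 48.7, 6.92, 51.4 and 19.3 in shallow ones, with no overlap there or in the epithelial gate. Without Bathybates or without Simochromis 2 iron and haem genes were higher in whole-library sums, and without Trematocara or without Petrochromis 1 biotransformation gene was. With the epithelial share as a covariate 1 of 20 iron and haem genes was higher and 1 lower (2.89% and 2.97% of all features). Under that model 0 of 18 biotransformation genes were higher or lower.

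Of the antigen presentation genes 10 of 15 had negative fold changes in whole-library sums and 11 of 15 in epithelial-gated sums. 2 of 15 were lower at an unadjusted p under 0.05 in whole-library sums, cd74 and nlrc5 (13.3%, beside 8.88% of all features), and 4 of 15 in epithelial-gated sums, where ciita and tap1 joined them (26.7%, beside 5.86%). Without any 1 of Trematocara, Bathybates, Tropheus or Julidochromis the epithelial-gated count was 2. With the epithelial share as a covariate the whole-library count was 1 of 15 (2.97% of all features). nlrc5, the activator of MHC class I genes in mammals, was at 1.72, 4.40, 2.90, 3.41 and 2.96 scaled CPM in the epithelial gate of deeper-water libraries and at 11.2, 11.6, 5.70, 15.8 and 7.82 in that of shallow ones (log2 fold change -1.75, edgeR adjusted p = 0.21), with no overlap. The summed leukocyte list inside this gate was 71.3 to 117 scaled CPM in deeper-water libraries and 111 to 151 in shallow ones. Its part in these differences was not tested.

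Interferon genes had 0 of 12 higher and 2 lower in whole-library sums (16.7% lower, beside 8.88% of all features), led by cmpk2, which was at 0.121 to 0.478 scaled CPM in deeper-water libraries and 0.659 to 1.89 in shallow ones and did not pass the filter in the gates. These cmpk2 levels rest on few counts, 25 UMIs over all deeper-water libraries and 94 over all shallow ones. With the epithelial share as a covariate 0 of the 12 interferon genes were lower (2.97% of all features). Of 11 mucus and goblet cell genes, 3 were lower in epithelial-gated sums (27.3%, beside 5.86% of all features) and 1 higher (9.09%, beside 6%), with a median of -0.58. Without Eretmodus 1 was lower. galnt3, which starts the sugar chains of mucins, was at 1.97, 0.746, 0.773, 3.82 and 1.40 scaled CPM in that gate of deeper-water libraries. In that of shallow ones it was at 5.01, 2.1, 19.6, 2.38 and 35.2, highest in Petrochromis and Simochromis. Its log2 fold change was -2.88 with all 10 libraries and -0.32 without the Tropheini.

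**Figure D4:**
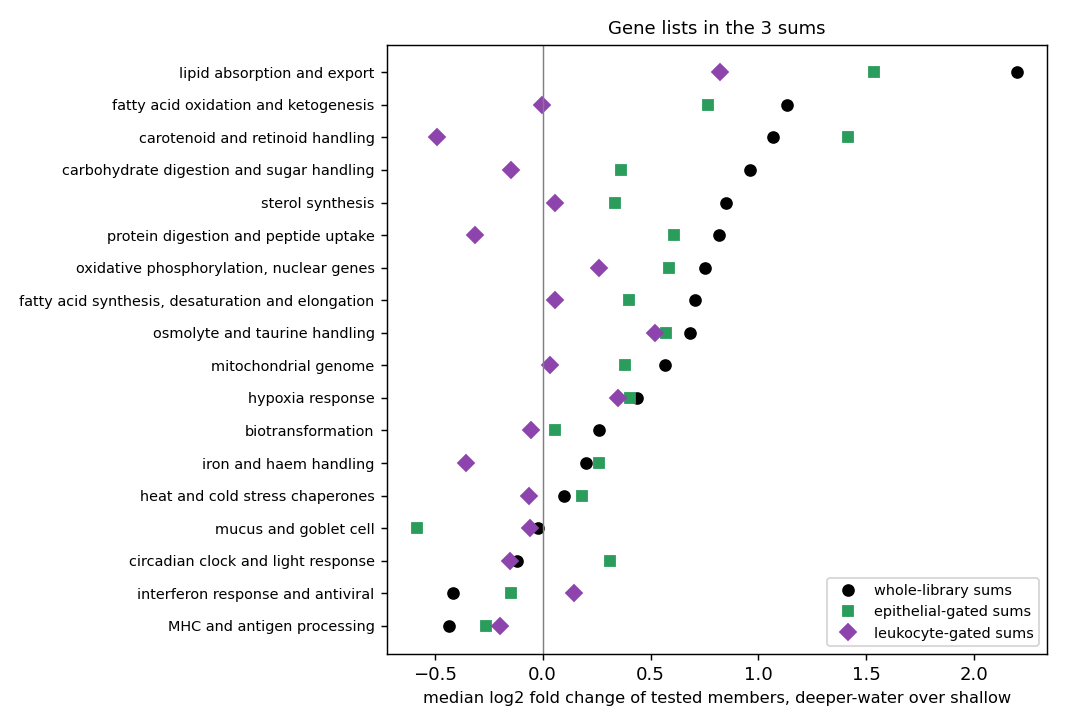
Median log2 fold change, deeper-water over shallow rocky-shore, of the tested members of each of the 18 gene lists in whole-library sums (circles), epithelial-gated sums (squares) and leukocyte-gated sums (diamonds). The medians over all features were 0.02, 0.04 and 0.01, and the lipid list lies farthest from 0 in whole-library sums at 2.2.

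The named genes of lowest p inside the gates did not pass the threshold, and for each of them the 2 sides did not overlap. They too were picked by the p of this difference, so that is not a separate result. Over all features every deeper-water library lay above every shallow one in 1.02% and below in 1.19% of features in the epithelial gate, and in 0.651% and 0.877% in the leukocyte gate. In epithelial-gated sums suox, wisp1 and dph1 had the lowest p of the named genes in the higher direction (edgeR, adjusted p = 0.158 for all). suox was at 59.0, 3.88, 57.6, 26.4 and 58.2 scaled CPM in deeper-water libraries and at 0.524, 0, 1.07, 0.757 and 1.57 in shallow ones. It was called once Trematocara was left out. The shallow values of suox, wisp1 and dph1 rest on few counts. Over all shallow libraries they had 21, 31 and 32 UMIs in this gate, against 2159, 1131 and 418 over all deeper-water ones. rtn1, which encodes a reticulon of the endoplasmic reticulum, and fhdc1 had the lowest p of the named genes in the lower direction beside hk1. rtn1 had a log2 fold change of -4.98, and of -3.08 without the Tropheini. rtn1 stood at 2.09, 0.224, 1.74, 1.54 and 0.329 scaled CPM in deeper-water libraries and at 21.4, 8.40, 69.1, 12.2 and 75.1 in shallow ones, and all 3 Tropheini lay above the other shallow libraries.

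In leukocyte-gated sums pck1, dph1 and the glycogen synthase gene gys1 had the lowest p of the named genes in the higher direction. gys1 was at 37.6, 23.4, 38.4, 39.3 and 30.1 scaled CPM in deeper-water libraries and at 13.2, 12.7, 9.15, 15.3 and 5.32 in shallow ones (log2 fold change 1.59, edgeR adjusted p = 0.249). pck1 was at 4.01 to 27.7 scaled CPM in this gate of deeper-water libraries, against 85.3 to 1562 in their whole sums. The part of free epithelial RNA in the leukocyte gate was not tested.

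In the lower direction smox, abhd3 and cadm4 had the lowest p of the genes with a name in that gate. smox encodes spermine oxidase, which breaks down polyamines. Within the leukocyte gate it was at 21.5, 28.3, 22.9, 21.5 and 49.2 scaled CPM in deeper-water libraries and at 78.6, 88.3, 122, 177 and 108 in shallow ones (log2 fold change -2.0, edgeR adjusted p = 0.131). Within the epithelial gate the order was the reverse, at 22.6, 57.5, 29.5, 36.8 and 203 in deeper-water libraries and 10.6, 14.7, 7.12, 7.24 and 3.91 in shallow ones (log2 fold change 3.03, adjusted p = 0.209). In whole-library sums the sides overlapped, with a log2 fold change of -0.11.

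Of the features that carry only a numbered identifier, LOC109205079 and LOC100700804 had the lowest p in the higher direction in whole-library sums and LOC112841916 and LOC109195876 in the lower. LOC109195876 was at 0.805, 0.670, 1.90, 7.93 and 5.46 scaled CPM in deeper-water libraries and at 99.2, 468, 138, 68.9 and 105 in shallow ones. Within the leukocyte gate it was at 2.64 to 26.6 scaled CPM in deeper-water libraries and at 184 to 678 in shallow ones, again with no overlap (log2 fold change -4.60, edgeR unadjusted p = 2.35e-05, adjusted p = 0.131), and its p there was below those of smox, abhd3 and cadm4. Within the epithelial gate it was at most 1.17 in any of the 10. All species were counted against 1 list of genes whose reference species is not given in the sources used here. The part of sequence divergence from it was not tested, in these levels or in those of any gene above, fbxo25 included.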

How the data were processed

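For 25 libraries, 1 per species, the deposited values are UMI counts of genes in barcodes, without scaling, made by the authors with Cell Ranger 5.0.0, per the file headers. Chemistry was 10x Chromium 3' v3.1, per the labels' protocols. The other deposited columns hold barcodes and gene names and carry no measurement (unit: other). The reference and annotation are not given in the sources used here. There were 42622 features. A LOC number is the only name of 30456, and the Haplochromis burtoni gene table held 0 of those, so no positions or sequences are given.

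Barcodes with at least 500 UMIs and 250 genes were summed per library, over all barcodes and over both gates. The epithelial gate held 610 to 2587 barcodes in deeper-water libraries and 305 to 1119 in shallow ones. Its sums held 8645289 to 18117996 UMIs in deeper-water libraries and 1195545 to 11541205 in shallow ones. The gate lists matched 12 of 24 epithelial and 15 of 24 leukocyte genes. Doublets were not removed. A barcode with UMIs of both lists enters a gate where 1 list exceeds 3 times the other, and otherwise neither. Sums of the 10 libraries were tested with edgeR 4.0.16 (R 4.3.3, TMM, filterByExpr, robust quasi-likelihood F test, Benjamini-Hochberg adjustment over all features tested). Standard errors were derived from the F statistic. Alternatives used DESeq2 1.42.0 and limma 3.58.1. The test was also run on simulated counts with known changes. These held no difference in cell makeup between sides and no shared ancestry, so that run does not bear on either. Shares were tested in Python 3.11.15 with numpy 2.4.6, and their intervals were computed with scipy 1.17.1. Thinned shares leave out barcodes under 1000 UMIs, 91 to 1374 per library. p-values weigh the difference between sides against the spread between species libraries, and intervals of shares cover counting error only. The tests treat species as independent and take no account of shared ancestry, such as that of the 3 Tropheini.

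The species sides and the 18 gene lists were chosen with earlier results of these data known, and 333 of their 594 gene names were found. Named genes are those past an adjusted p of 0.05 (the 10 of lowest p in each direction), otherwise the 3 of lowest p in each direction of a fit, the member of lowest p in each list, and 2 LOC identifiers in each direction. The 10 of lowest p in each direction of the whole-library sums were added after seeing the values.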

Additional observations from a re-analysis of the deposited data

Results flagged for a closer look

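In 4 of 138 groups of 5 libraries, 1 library lay far from the other 4 by Dixon's criterion, which chance alone meets in about 1 of 20 groups. For levels in scaled CPM the criterion was taken on logarithms after adding 1, and for the UMI median on the value itself. The median number of UMIs per barcode was 5957 in Trematocara, against 1610 to 2840 in the other deeper-water libraries. pfkl was at 0.771 scaled CPM in the whole-library sum of Julidochromis, against 1.87 to 2.36 in the other shallow libraries. The summed stomach gland markers were at 28.1 scaled CPM in Julidochromis, against 75.5 to 88.3 in the other shallow libraries. Of the 15 genes on that list 3 were matched, and nearly all of the sum was anxa10, at 27.9 to 88.1 in shallow libraries. The proton pump genes atp4a and atp4b were at most 0.154 and 0.108 scaled CPM there. cadm4 was at 1.42 scaled CPM in the leukocyte gate of Bathybates, against 2.87 to 3.65 in the other deeper-water libraries.

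smox had opposite directions in the 2 gates. All deeper-water libraries lay above all shallow ones in the epithelial gate (log2 fold change 3.03) and below them in the leukocyte gate (-2.0). The difference between the gates was not tested.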

How the results depend on the processing

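No paired analysis was possible because the labels give no replicate numbers and each species has 1 library. The count of features past an adjusted p of 0.05 depended on the tool and on single libraries. In whole-library sums it was 1 with edgeR, 0 to 4 with 1 library left out, 0 without the Tropheini, 0 with the epithelial share as a covariate, 4 without Trematocara and Julidochromis, 5 with limma-voom, 26 with all libraries thinned to 6927767 UMIs and 1333 with DESeq2. At an adjusted p of 0.1 it was 171. In epithelial-gated sums it was 0 with edgeR, 0 to 1 with 1 library left out, 1 without the low-count filter, 1 without Trematocara and Julidochromis, and 334 with DESeq2. In leukocyte-gated sums it was 0 with edgeR, 0 to 3 with 1 library left out, 4 without the filter, and 95 with DESeq2. The looser limit of 0.1 and the version without Trematocara and Julidochromis were chosen after seeing the data.

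The difference in epithelial share was 16.9 points after thinning (exact permutation, adjusted p = 0.0635) and 25.1 without the Tropheini (adjusted p = 0.0952), and the leukocyte difference was -25.7 without the Tropheini (adjusted p = 0.0952). With 1 library left out they ran from 19.4 to 27.4 and from -23.4 to -15.5 points. Both passed 0.05 no longer without Julidochromis, Petrochromis, Eretmodus or Simochromis (adjusted p = 0.0556 each). Over 52 gene results and 1041 alternatives, 0 reversed direction, 10 lost the call (all fbxo25) and 68 gained one, 46 of them with DESeq2. Only fbxo25 had a call to lose. These genes were picked for the lowest p of a main fit or list, and the alternatives reuse the same libraries. The kept directions are therefore not separate support. The causes of the changes in calls were not tested.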
